A study of Mus musculus with 11 samples.

Results

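The signal of 5-hydroxymethylcytosine (5hmC) was profiled along mouse chromosome 6, in all 74869 tiles of 2 kb (fixed adjacent bins) that the deposited table of 1362779 tiles places on that chromosome. The chromosome was chosen by its read share, with results of these data known: it holds a smaller share of the reads in one line than in the other and at later than at earlier days. Its share and its profile are therefore given as a description and support nothing. The 19 autosomes together hold 1231381 tiles, and the other 18 served for comparison. After removal of tiles of very low or very high signal, 68469 tiles of chromosome 6 were tested, and 2463 of its tiles held no read in any library. The tiles were also summed into windows of 1 Mb, of which 147 of a possible 150 on chromosome 6 held enough tiles to be measured. Gene values, which average log2 RPKM across all tiles that a protein-coding gene touches, were obtained for 1075 of the 1126 genes annotated on the chromosome.

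The study made HMCP libraries, in which DNA fragments carrying 5hmC are captured with a commercial kit and sequenced, from mouse embryonic stem (ES) cells and from epiblast-like cells (EpiLC) made from them. Both lines used here are wild type. TET_WT is the parent of a line lacking Tet1, Tet2 and Tet3, and DNMT_WT is the parent of a line lacking Dnmt1, Dnmt3a and Dnmt3b. TET_WT was sampled as ES cells at day 0 (3 libraries, cells kept in 2i/Lif), at day 1 (2 libraries, replicates 2 and 3) and at day 2 (3 libraries) of EpiLC differentiation. DNMT_WT was sampled at day 2 (3 libraries). Neither knockout line, nor any embryoid body, was analysed here. Sample labels give a line, a day and a replicate number, and do not say whether replicates were separate cultures, so p-values measure the spread between these libraries only.

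5hmC is made by the TET enzymes, which oxidise 5-methylcytosine, the methyl mark that DNMT enzymes place mostly on cytosines followed by guanine (CpG). In ES cells it is known to lie in gene bodies and at enhancers and to be low at the start sites of active genes that are rich in CpG. 2i/Lif medium is known to lower DNA methylation, and methylation is regained as cells become EpiLC. The capture gives relative amounts: the reads of a chromosome depend on its 5hmC per DNA copy and on how much DNA of that chromosome the cells hold. These cannot be told apart here.

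Libraries held between 7342015 (day 1 replicate 2) and 51604034 reads (day 0 replicate 1), of which 432015 to 3294034 lay on chromosome 6. The median tile of the chromosome held 2 reads in day 1 replicate 2 and 17 in day 0 replicates 1 and 3. Day 0 replicate 2 stood apart from the rest of its group. The chi-square per degree of freedom over the 147 windows was 202 against replicate 1 and 227 against replicate 3, while that between replicates 1 and 3 was 9.17 and all pairs of the other groups lay between 2.16 and 4.82. It also had no read in 25.6% of the tiles of chromosome 6, compared with 9.34% and 6.93% in replicates 1 and 3. Shares, counts of called features, and calls of named windows and genes against day 0 are therefore also given without it. Blocks, stretches, signal and level classes, list counts, start-site tiles and single tiles are given only with it.

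The DNA at 6 start sites of the chromosome shows the range of sequence that stands behind the gene results. Each line below gives the 250 bases before a start site (RefSeq, GRCm38.p6), read 5′ to 3′ on the strand of the gene, with every CpG in capitals. They were picked after their values were seen. Where a gene has several start sites, the one with the smallest adjusted p-value (limma, day 2 or line) was taken. In the tile at the start site the signal was higher at day 2 for Nanog, Cd9 and Trh, higher in DNMT_WT for Hoxa2, and lower in DNMT_WT for Mest and Clec2g.
Nanog: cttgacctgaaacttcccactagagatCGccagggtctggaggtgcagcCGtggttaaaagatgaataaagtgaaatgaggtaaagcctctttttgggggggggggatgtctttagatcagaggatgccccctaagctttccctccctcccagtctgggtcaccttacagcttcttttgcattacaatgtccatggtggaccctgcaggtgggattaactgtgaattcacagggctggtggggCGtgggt
Cd9: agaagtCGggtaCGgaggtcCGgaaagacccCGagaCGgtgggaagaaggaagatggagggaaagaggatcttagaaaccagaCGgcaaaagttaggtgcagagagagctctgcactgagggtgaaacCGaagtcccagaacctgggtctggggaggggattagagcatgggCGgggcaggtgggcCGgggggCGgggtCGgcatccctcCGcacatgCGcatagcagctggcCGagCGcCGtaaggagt
Trh: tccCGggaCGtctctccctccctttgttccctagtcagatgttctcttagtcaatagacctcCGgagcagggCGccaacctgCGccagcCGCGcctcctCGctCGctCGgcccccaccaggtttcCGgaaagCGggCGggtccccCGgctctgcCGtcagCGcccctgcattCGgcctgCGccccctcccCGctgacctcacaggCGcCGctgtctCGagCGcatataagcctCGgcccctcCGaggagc
Hoxa2: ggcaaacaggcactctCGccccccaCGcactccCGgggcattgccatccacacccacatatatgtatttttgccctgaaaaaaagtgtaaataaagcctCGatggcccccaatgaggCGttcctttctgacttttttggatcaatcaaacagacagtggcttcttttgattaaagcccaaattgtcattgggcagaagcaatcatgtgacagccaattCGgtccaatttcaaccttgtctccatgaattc
Mest: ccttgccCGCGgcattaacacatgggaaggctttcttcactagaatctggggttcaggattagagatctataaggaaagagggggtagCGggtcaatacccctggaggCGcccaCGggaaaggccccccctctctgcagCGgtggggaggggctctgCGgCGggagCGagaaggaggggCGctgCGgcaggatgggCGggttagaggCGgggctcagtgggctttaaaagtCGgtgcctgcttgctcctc
Clec2g: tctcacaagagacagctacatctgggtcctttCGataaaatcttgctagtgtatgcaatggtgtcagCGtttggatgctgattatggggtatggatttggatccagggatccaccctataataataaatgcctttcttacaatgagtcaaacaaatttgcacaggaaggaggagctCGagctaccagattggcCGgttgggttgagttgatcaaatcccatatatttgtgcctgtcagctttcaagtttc
The stretches lie at chr6:122707239-122707488 on the forward strand (Nanog), chr6:125494761-125495010 on the reverse strand (Cd9), chr6:92244651-92244900 on the reverse strand (Trh), chr6:52164832-52165081 on the reverse strand (Hoxa2), chr6:30737800-30738049 on the forward strand (Mest) and chr6:128934131-128934380 on the forward strand (Clec2g). They hold 3, 16, 25, 6, 14 and 4 CpG in that order. Of the 32851 RefSeq promoters of the same length in the genome, 92.1% hold at least 1 CpG (searched as CG, which reads the same on both strands), with a median of 6 and quartiles of 2 and 16. Trh lies above the upper quartile, Cd9 on it, and the other 4 between the quartiles.

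Chromosome 6 held a smaller share of the autosomal reads with each day of differentiation, and the smallest share in DNMT_WT. At day 0 it held 6.57%, 6.39% and 6.56% of the autosomal reads in replicates 1, 2 and 3. At day 1 it held 6.04% and 6.03% in replicates 2 and 3. At day 2 TET_WT held 5.87%, 5.84% and 5.87%, and DNMT_WT 5.06%, 5.08% and 5.08%. The libraries of a group lay close together, no 2 groups overlapped, and the groups fell in the order day 0, day 1, day 2, DNMT_WT. The chromosome has 6.08% of the autosomal tiles, so its share was above its size at day 0 and below it in every other group. Counting error is small beside these differences: the 95% Wilson interval of the shallowest library, day 1 replicate 2, ran from 6.02% to 6.05%, and it covers counting error only.

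**Figure D1:**
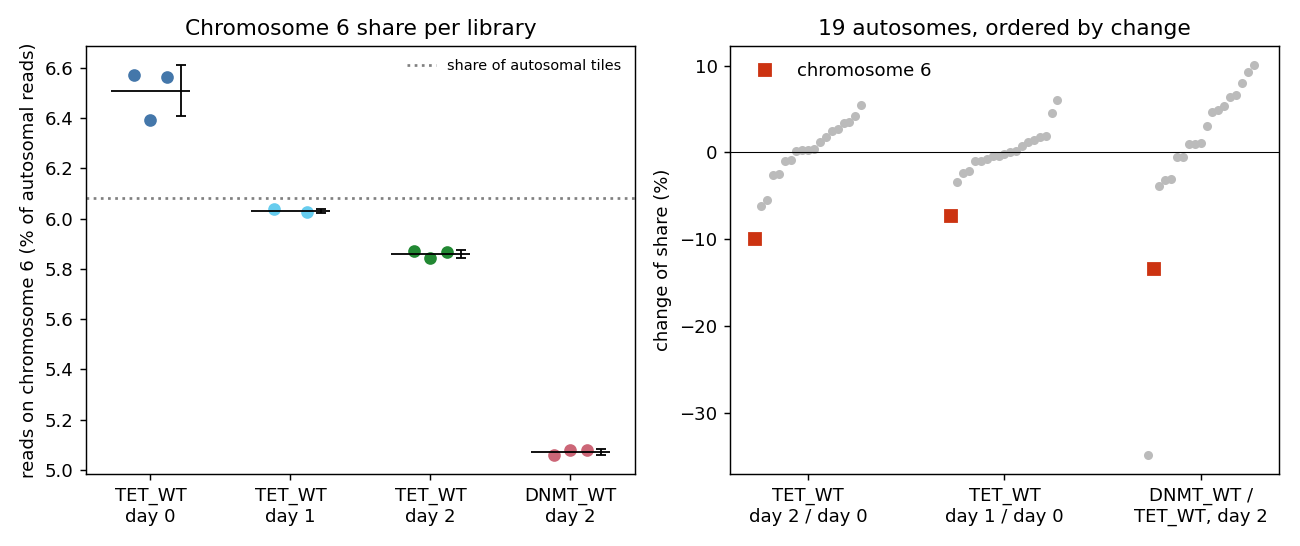
Left, reads on chromosome 6 as a percentage of the autosomal reads of each library (points), with the group mean (line) and SD (bar), and the share of autosomal tiles (6.08%, dotted). Right, percent change of the read share of each of the 19 autosomes in the 3 comparisons, ordered by size, with chromosome 6 as a red square. The 4 groups do not overlap on the left, and on the right chromosome 6 is the lowest autosome in both comparisons with day 0 and the second lowest, after chromosome 14, between the lines.

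As a ratio, the share changed by -9.96% from day 0 to day 2, by -7.33% from day 0 to day 1 and by -13.4% from TET_WT to DNMT_WT at day 2. Taken as the median change in log2 RPKM of its tiles less that of the other autosomes, the line value was smaller, at -5.30%. Without day 0 replicate 2 the changes to day 2 and day 1 were -10.8% and -8.15%. Chromosome 6 was the lowest of the 19 autosomes from day 0 to day 2, followed by chromosome 16 at -6.20% and chromosome 13 at -5.48%. It was the lowest at day 1 as well, followed by chromosome 16 at -3.43%. Between the lines chromosome 14 was lower, at -34.9%, and all other autosomes changed by -3.83% to 10.0%. The comparisons with day 0 share the day 0 libraries, and the line comparison shares its TET_WT day 2 libraries with the first, so they are not independent of each other.

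Reads per tile on chromosome 6, relative to the other autosomes on the log2 scale, were 0.10 ± 0.02 at day 0 (SD, n = 3), -0.01 ± 0.002 at day 1 (n = 2), -0.06 ± 0.004 at day 2 (n = 3) and -0.28 ± 0.003 in DNMT_WT (n = 3). The lower level was found in tiles of every signal strength. With all autosomal tiles split into 5 equal classes by mean signal, the change from day 0 to day 2 was -0.14, -0.15, -0.14, -0.16 and -0.16 from the lowest to the highest class. The change from TET_WT to DNMT_WT was -0.21, -0.15, -0.21, -0.22 and -0.22. In each of the 5 classes the libraries of the compared groups did not overlap. The highest class held 67.2% of the reads of the chromosome.

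The change was also present inside and outside genes. From day 0 to day 2 it was -0.17 in tiles of protein-coding genes, -0.18 in tiles of other annotated genes only and -0.14 outside annotated genes. Between the lines the same 3 values were -0.22, -0.21 and -0.21. The gene classes differed more in level than in change, as the plot of density by tile class shows: outside genes chromosome 6 lay above the other autosomes in all TET_WT groups.

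**Figure D2:**
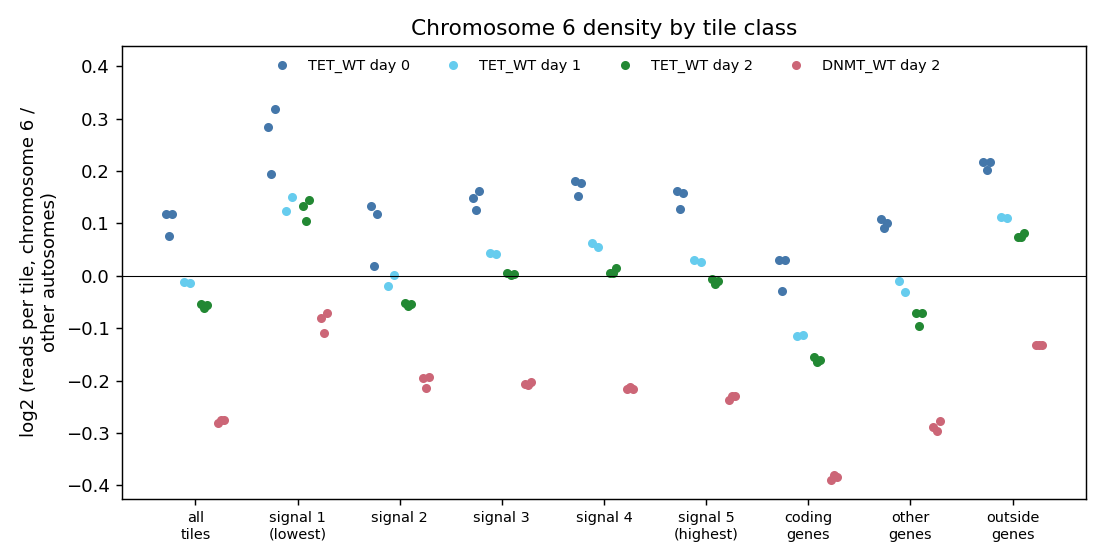
Reads per tile on chromosome 6 divided by reads per tile on the other autosomes (log2), 1 point per library, for all tiles, for 5 classes of tile signal and for tiles in protein-coding genes, in other annotated genes only and outside genes. In every class the day 0 libraries are highest, DNMT_WT is lowest, and day 1 and day 2 lie between.

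In windows of 1 Mb (log2 of CPM, counts scaled to the autosomal reads of a library), the lower share was spread along the chromosome and was not confined to 1 stretch. The median difference over its 147 windows was -0.21 from day 0 to day 2, compared with -0.05 over the 2241 windows of the other autosomes. It was -0.07 compared with 0.04 from day 0 to day 1, and -0.29 compared with -0.07 between the lines. When a window was given the mean log2 RPKM of its tiles, the day 1 median turned to 0.11 on chromosome 6, compared with 0.24 on the other autosomes, and 46 windows were below 0. In summed reads the difference was below 0 in 123 windows from day 0 to day 2 (83.7%, compared with 59.2% on the other autosomes). It was below 0 in 104 from day 0 to day 1 (70.7% compared with 36.2%) and in 140 between the lines (95.2% compared with 63.1%). The spread of the differences, as interquartile range, was 0.27 on chromosome 6 and 0.29 on the other autosomes for day 2, and 0.24 and 0.31 between the lines. The distribution was thus shifted rather than wider.

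In limma's fit over the windows of all autosomes (adjusted p under 0.05), 75 windows of chromosome 6 were lower at day 2 than at day 0 and 4 were higher, where 22.4% of all windows were lower and 16.8% higher. At day 1, 30 were lower (5.53% of all windows) and 0 higher (4.52% of all windows). In DNMT_WT 97 were lower than in TET_WT (27.8% of all windows) and 1 was higher (17.3% of all windows). Because the chromosome was picked on these contrasts, nothing is read from these counts. Without day 0 replicate 2, 629 of all 2388 autosomal windows were higher and 1408 lower for day 2, and 543 and 731 for day 1. On chromosome 6 the fit then called 131 windows in all for day 2 and 94 for day 1. Other single libraries moved the total by more than 1.5 times as well: 52 windows were called for day 2 without day 0 replicate 1, 47 without day 2 replicate 2 and 49 without day 2 replicate 3, and 13 and 14 were called for day 1 without day 1 replicate 2 and without replicate 3. With only the groups compared in the fit, 0 windows were called for day 1, and 29 had an unadjusted p under 0.05.

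**Figure D3:**
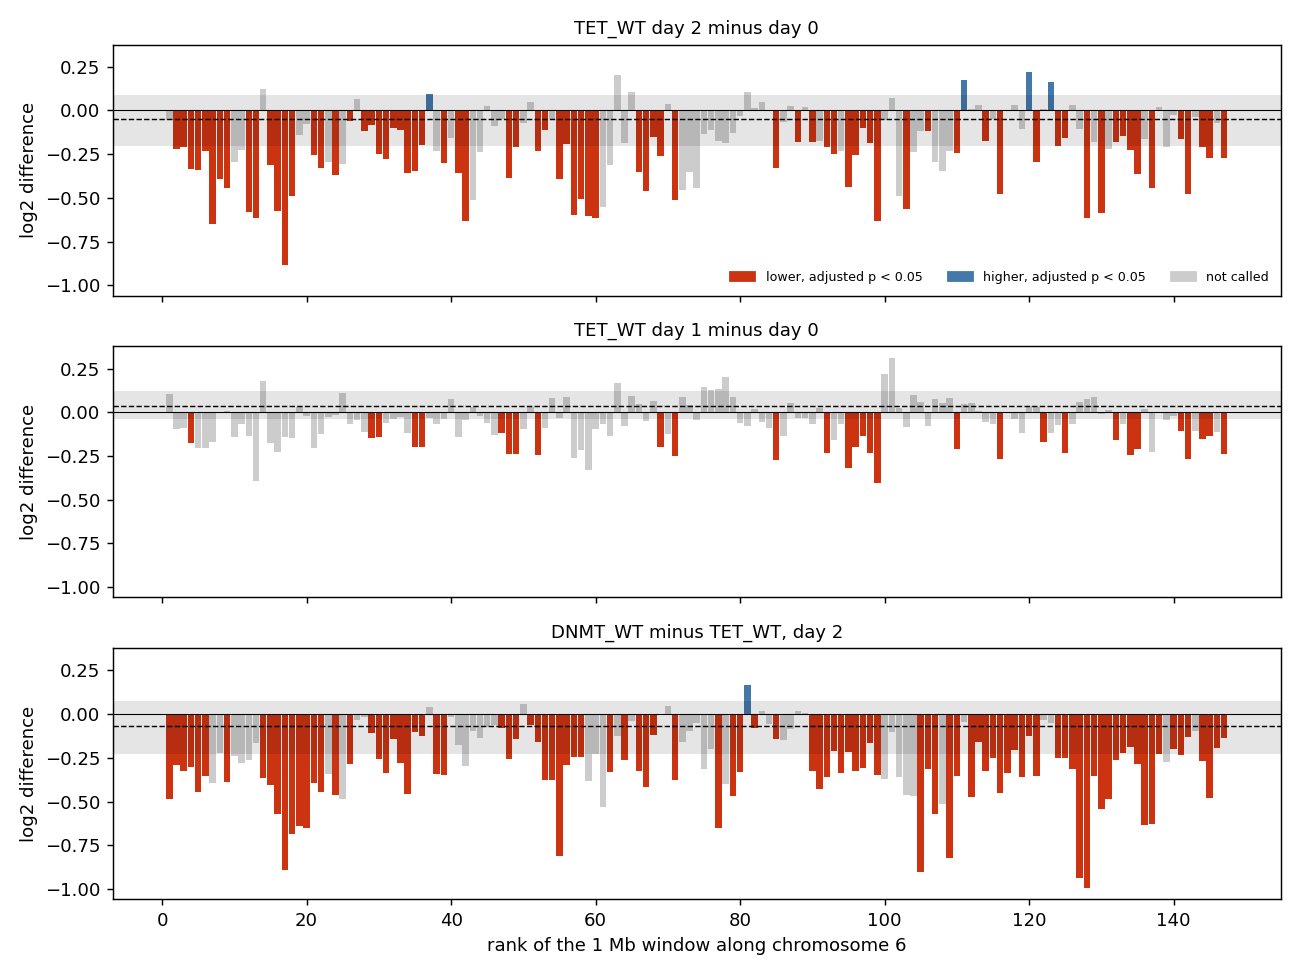
Difference of each of the 147 measured 1 Mb windows of chromosome 6, in order along the chromosome, in 3 comparisons (log2 scale), coloured by the call at adjusted p under 0.05. The dashed line and grey band give the median and quartiles of the windows of the other autosomes, and most windows of chromosome 6 lie below that median in each panel (116, 117 and 128 of 147).

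In blocks of 10 Mb, the median difference of the windows was below 0 in all 15 blocks from day 0 to day 2 and between the lines, and in 12 of the 15 from day 0 to day 1. It was below the median of the other autosomes in 13 blocks for day 2, in 13 for day 1 and in all 15 between the lines. The lowest block from day 0 to day 2 lay at 10 to 20 Mb, at -0.42, and the highest at 80 to 90 Mb, at -0.02. Between the lines the lowest lay at 20 to 30 Mb, at -0.46, and the highest at 80 to 90 Mb, at -0.11. The block at 80 to 90 Mb holds 129 coding genes and the one at 10 to 20 Mb holds 26. Windows with more coding genes had higher levels, with a Spearman coefficient of 0.54 at day 0 and 0.60 in DNMT_WT on chromosome 6, compared with 0.63 and 0.69 on the other autosomes. The windows of 1 group share their libraries, so this is a description.

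Windows of low level had the larger negative differences from day 0 to day 2, on chromosome 6 and elsewhere. In the lowest of 5 classes of window level the median difference from day 0 to day 2 was -0.39 on chromosome 6 and -0.28 on the other autosomes. In the highest class it was -0.10 and 0.12. Relative to the other autosomes, chromosome 6 thus stood at -0.12 in the lowest class and -0.21 in the highest, and it was below them in each class in between. Between the lines the same values were -0.20 in the lowest class and -0.26 in the highest. At day 1 the order within chromosome 6 was the other way, with medians of 0.02 in the lowest class and -0.12 in the highest, next to 0.13 and 0.01 on the other autosomes.

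Runs of at least 3 neighbouring windows that were each called lower made up 7 stretches with 40 windows from day 0 to day 2. The longest had 9 windows, chr6:30000001-39000000, with a mean difference of -0.20. The strongest had 4 windows, chr6:17000001-21000000, with a mean of -0.57 and only 12 coding genes. The other 5 were chr6:4000001-12000000, chr6:57000001-63000000, chr6:68000001-72000000, chr6:97000001-102000000 and chr6:134000001-138000000, with means between -0.48 and -0.23. At day 1 there were 2 stretches, chr6:49000001-52000000 at -0.20 and chr6:97000001-102000000 at -0.26.

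Between the lines 12 stretches covered 82 windows. The longest had 15 windows, chr6:126000001-141000000, with a mean of -0.44 and 166 coding genes. The strongest were chr6:107000001-110000000 at -0.60 and chr6:16000001-25000000 at -0.56. In all 12 stretches every window had groups that did not overlap, as did 80.7% of all autosomal windows between the lines. The stretches hold only called windows, so nothing is read from this. No stretch was found in which signal was higher, in any of the 3 comparisons.

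Single windows show what such a stretch looks like per library. The window chr6:19000001-20000000, which holds no protein-coding start site and no coding gene, had values of 6.64, 6.13 and 6.71 at day 0 (replicates 1, 2 and 3), 6.40 and 6.30 at day 1, 5.72, 5.60 and 5.51 at day 2, and 4.65, 4.70 and 4.81 in DNMT_WT. The groups did not overlap between day 0 and day 2 or between the lines. The difference was -0.88 ± 0.17 (SE, adjusted p = 0.0018) for day 2 and -0.89 ± 0.17 (adjusted p = 0.0013) for the line. The library with the fewest reads there had 414.

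The window chr6:101000001-102000000 holds Pdzrn3, a ubiquitin ligase gene, and was lower at day 1 already. Its values were 8.95, 8.81 and 8.95 at day 0, 8.51 and 8.49 at day 1, 8.29, 8.22 and 8.30 at day 2, and 7.90, 7.98 and 7.89 in DNMT_WT. Each group lay below the one before it with no overlap. The difference from day 0 to day 1 was -0.41 ± 0.05 (adjusted p = 0.0007), the largest negative one of the chromosome among called windows. The window with Mitf, a pigment cell and mast cell transcription factor, chr6:97000001-98000000, differed by -0.32 from day 0 to day 1 and by -0.44 to day 2. The windows chr6:87000001-88000000 (with Bmp10), chr6:118000001-119000000 (with Ret and Cacna1c) and chr6:144000001-145000000 (with Sox5) each differed by -0.27 from day 0 to day 1, and by -0.33, -0.48 and -0.48 to day 2.

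Other windows with the largest negative differences from day 0 to day 2 were chr6:9000001-10000000 (with Nxph1) at -0.65, chr6:44000001-45000000 (no coding gene) at -0.63 and chr6:130000001-131000000 at -0.61. The last holds the Klra genes, which encode Ly49 receptors of natural killer (NK) cells. These 3 windows are low in reads, with 267 to 483 in the library that had the fewest in each, and day 0 replicate 2 lay far below its group there. In the Klra window it had 5.17, next to 5.89 and 5.93 in replicates 1 and 3, and the day 2 values were 5.09, 4.99 and 5.08.

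Between the lines the largest negative differences lay in the NK gene complex, a cluster of lectin-like receptor genes of the Klr and Clec families. The window chr6:129000001-130000000 had 7.48, 7.43 and 7.40 in TET_WT at day 2 and 6.49, 6.47 and 6.55 in DNMT_WT, a difference of -0.94 ± 0.08 (adjusted p = 5.3e-06). The TET_WT values of that window at day 0 and day 1 were 7.38 to 7.63, so day 0 and day 2 overlapped and DNMT_WT stood below every TET_WT library. The neighbouring Klra window differed by -0.99 ± 0.21 (adjusted p = 0.0032). The windows with Lrrn1 (chr6:107000001-108000000) and with part of Grm7 (chr6:111000001-112000000) differed by -0.91 and -0.82, and neither was called from day 0 to day 2.

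A few windows went the other way. The window chr6:122000001-123000000 holds Nanog, Dppa3, Gdf3 and Slc2a3. It had 9.34, 9.35 and 9.37 at day 0, 9.38 and 9.39 at day 1, and 9.54, 9.59 and 9.60 at day 2. It was higher at day 2 by 0.22 ± 0.02 (adjusted p = 4.6e-05), the largest positive difference on the chromosome, and it was lower in DNMT_WT than in TET_WT by -0.13 (adjusted p = 0.0013). Windows with Creld1, Vhl and Brpf1 (chr6:113000001-114000000) and with Braf (chr6:39000001-40000000) were higher at day 2 by 0.17 and 0.09. The window chr6:125000001-126000000, with Cd9 and Gapdh, was called higher by 0.16 but its groups overlapped. Between the lines 1 window was higher, chr6:83000001-84000000 by 0.17, and it holds Tlx2 and Tet3.

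When the median of each chromosome was set to 0 in every library, the windows of chromosome 6 were called in both directions. For day 2, 24 were then higher (18.7% of all windows) and 24 lower (16.7% of all windows). For day 1, 1 was higher (2.05% of all windows) and 9 were lower (3.06% of all windows). Between the lines 42 were higher (25.3% of all windows) and 14 lower (12.6% of all windows). With its own level removed, the shares called on chromosome 6, 16.3% and 16.3% for day 2 and 28.6% and 9.52% for the line, were near those of all windows. For day 1 they were 0.68% higher and 6.12% lower, compared with 2.05% and 3.06% of all windows.

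At the level of genes, chromosome 6 had both rises and falls, and its median gene lay below that of the other autosomes. The median gene difference from day 0 to day 2 was -0.09 on chromosome 6 and 0.10 on the other autosomes, and between the lines it was -0.15 and 0.12. In the test of day 2 against day 0, 88 genes of chromosome 6 rose (16.1% of all autosomal genes did) and 74 fell (2.72% did). In DNMT_WT 45 were higher (15.8% of all genes) and 130 lower (4.32% of all genes). At day 1, 0 were higher (0% of all genes) and 0 lower (0% of all genes) in limma's fit, 153 had an unadjusted p under 0.05, and voom on the reads called 1 higher and 16 lower.

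These counts move with the scale and with single libraries. With libraries centred on their median, the median difference over all genes went from 0.09 to -0.05 for day 2 and from 0.10 to -0.04 for the line. The genes of chromosome 6 were then 42 higher and 144 lower for day 2 (7.82% and 5.62% of all genes). For the line 18 were higher and 208 lower (6.24% and 7.49% of all genes). Without day 0 replicate 2, 4556 of all 19738 autosomal genes were higher and 2033 lower for day 2, and 4558 and 1734 for the line. For day 1 these counts were 221 and 66. On chromosome 6, 346 genes were then called for day 2, 11 for day 1 and 305 for the line. The total for day 2 was 99 without day 2 replicate 2. The total for the line was 96 and 98 without TET_WT day 2 replicates 1 and 3, and 116, 115 and 110 without DNMT_WT replicates 1, 2 and 3. The total for day 1 was 1 without day 1 replicate 2 and 1 without replicate 3.

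The HoxA cluster, the run of homeobox genes that pattern the body axis, gained signal against the trend of its chromosome. Of the 11 Hoxa genes and the neighbouring Evx1, 10 rose and 0 fell from day 0 to day 2, with a list median of 0.76 (all genes: 0.09, of which 16.1% rose and 2.72% fell). In DNMT_WT 11 of the 12 were higher than in TET_WT and 0 were lower, with a median of 0.93 (all genes: 0.10, of which 15.8% were higher and 4.32% lower). At day 1 none of the 12 was called in either direction. With the chromosome's median set to 0, 9 and 11 of the 12 were higher.

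Hoxa2, at chr6:52162417-52164831, had gene values of 0.14, 0.40 and 0.12 at day 0, -0.37 and 0.35 at day 1, 1.05, 1.30 and 0.89 at day 2, and 2.69, 2.38 and 2.57 in DNMT_WT. Day 0 and day 1 overlapped, day 2 lay above both, and DNMT_WT above all. The differences were 0.86 ± 0.17 for day 2 (adjusted p = 0.0037) and 1.47 ± 0.17 for the line (adjusted p = 2e-04). In the tile at its start site, next to the sequence printed above, limma gave 1.01 and 2.28 for the same comparisons.

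Hoxa10, further along the cluster at chr6:52231197-52240854, had 0.51, 0.52 and 0.41 at day 0, 0.91, 0.94 and 0.81 at day 2 and between 2.16 and 2.34 in the 3 DNMT_WT libraries. The line difference of 1.38 ± 0.10 (adjusted p = 2.1e-05) was larger than its change from day 0 to day 2, 0.41 ± 0.10. Hoxa11 followed, at 1.39 between the lines and 0.73 from day 0 to day 2. The largest rise from day 0 to day 2 in the cluster was that of Hoxa4, 1.31 ± 0.24. Evx1 and Hoxa13 were not called from day 0 to day 2 (0.08 and 0.31). Hoxa4 was not called between the lines (0.57, adjusted p = 0.12). Neighbouring Hoxa genes share tiles because each gene was extended by 2 kb, so they are not separate measurements.

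The 1 Mb window that holds the cluster did not show this gain. It differed by -0.07 from day 0 to day 2 and by 0.06 between the lines, and neither was called. The cluster covers only a part of the window.

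The locus of pluripotency genes near Nanog gained signal as ES cells became EpiLC. Of its 7 genes 4 rose and 0 fell from day 0 to day 2 (median 0.76), where 16.1% of all genes rose and 2.72% fell. In DNMT_WT 1 was higher and 0 lower (median -0.02), which is near the 15.8% of all genes that were higher. Nanog, a transcription factor of naive pluripotency at chr6:122707489-122714633, had -2.55, -1.53 and -2.11 at day 0, -0.86 and -1.51 at day 1, 0.55, 0.96 and 0.44 at day 2, and 1.07, 0.82 and 1.21 in DNMT_WT. Day 2 lay above day 0 and day 1 with no overlap, by 2.71 ± 0.25 against day 0 (adjusted p = 2.5e-05). This was the largest rise among the called genes of the chromosome. In its start-site tile 2, 7 and 7 reads at day 0 stood next to 20, 21 and 37 at day 2, although all day 0 libraries are deeper.

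The other members that rose were Dppa3 (0.84), a maternal factor that protects against demethylation in the embryo, Slc2a3 (0.87), a glucose transporter, and Gdf3 (0.76), a TGF-beta family ligand. Apobec1, Foxj2 and Phc1 were not called, at -0.03, 0.18 and 0.33. Dppa3 was also higher in DNMT_WT, by 0.45 (adjusted p = 0.025), while Nanog did not pass the test there (0.38, adjusted p = 0.32).

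**Figure D4:**
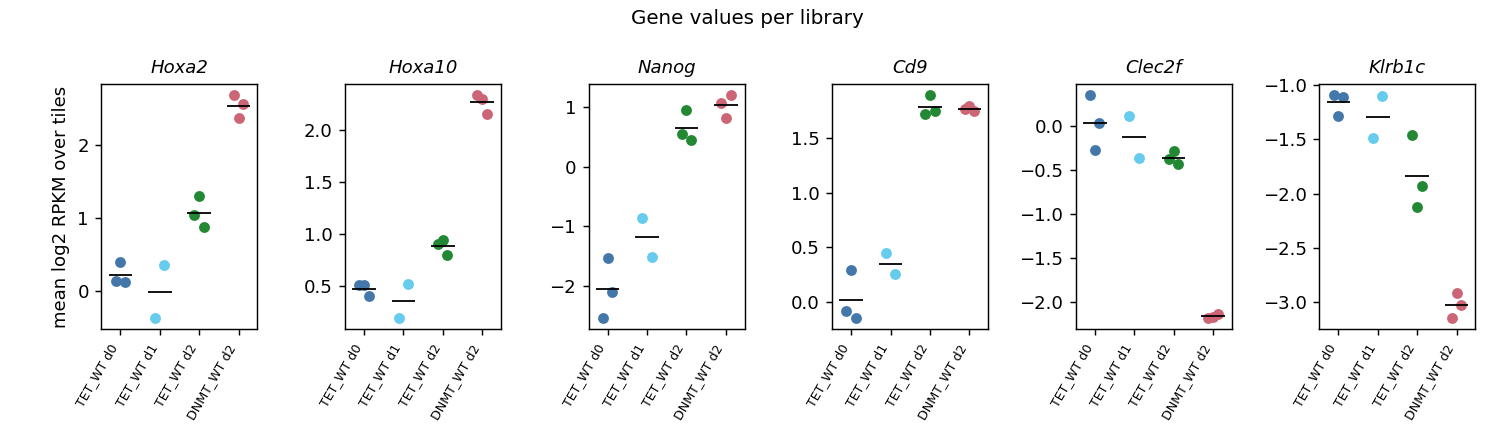
Gene values (tile log2 RPKM averaged per gene) of 6 genes, 1 point per library with the group mean as a line; each panel has its own scale. Hoxa2 and Hoxa10 are highest in DNMT_WT, Nanog and Cd9 are high in both day 2 groups, and Clec2f and Klrb1c are lowest in DNMT_WT.

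Leaving out predicted genes and olfactory and vomeronasal receptor genes, the genes besides Nanog with the largest rises from day 0 to day 2 were Tlx2, Cd9, Trh, Hoxa4, Cdkn1b, Creld1 and Gprc5a. Cd9, which encodes a tetraspanin of the cell surface (chr6:125460266-125494760), had -0.08, 0.29 and -0.15 at day 0, 0.45 and 0.25 at day 1, 1.72, 1.90 and 1.75 at day 2 and 1.76, 1.79 and 1.75 in DNMT_WT. Both day 2 groups were alike in level, and the rise was 1.77 ± 0.12 (adjusted p = 2.5e-06). The homeobox gene Tlx2 rose by 2.57, the thyrotropin-releasing hormone gene Trh by 1.77, the cell-cycle inhibitor gene Cdkn1b by 1.24, Creld1 by 1.16 and Gprc5a by 1.15. Tlx2 was higher still in DNMT_WT, by 0.89 (adjusted p = 0.04), and Gprc5a was lower there, by -0.50 (adjusted p = 0.0068).

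On the same terms, the largest falls from day 0 to day 2 were those of Doxl1 (-1.33), Bmp10 (-1.10), Ankrd7 (-1.08), Mdfic (-1.06), Atp6v1e1 (-0.88), Cttnbp2 (-0.83), Klrb1b (-0.80) and Clec4a1 (-0.79). Bmp10, a ligand of the BMP family known from the heart (chr6:87428994-87434512), had 1.92, 1.96 and 1.87 at day 0, 1.43 and 1.04 at day 1, 0.74, 0.91 and 0.80 at day 2, and -0.02, -0.33 and -0.23 in DNMT_WT. Each group lay below the one before it with no overlap. It fell, by -1.10 ± 0.12 (adjusted p = 6.3e-05) for day 2 and by -1.01 ± 0.12 (adjusted p = 0.00019) for the line. The change from day 0 to day 1, -0.68, did not pass the test (adjusted p = 0.08). Without day 0 replicate 2 the call of Klrb1b was lost (adjusted p = 0.055), and the other named windows and genes of the comparisons with day 0 kept theirs.

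Part of the Klr and Clec families was lower in DNMT_WT, and most members did not pass the test. Both families were taken by symbol over the whole chromosome, and some Clec genes, such as Clec5a, lie outside the NK gene complex. Of 25 Clec genes, 0 were higher and 8 lower in DNMT_WT (15.8% and 4.32% of all genes), with a median of -0.64. Of 23 measured Klr genes (29 annotated), 0 were higher and 5 lower, with a median of -0.37. From day 0 to day 2 the counts were 1 higher and 1 lower for Clec and 0 higher and 2 lower for Klr, with medians of -0.07 and -0.22. With the chromosome's median set to 0, 5 Clec and 4 Klr genes were lower in DNMT_WT. These families hold near-identical copies, and how the authors placed reads that match several copies is not given in the sources used here.

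Clec2f, at chr6:129008803-129021342, had -0.38, -0.29 and -0.43 in TET_WT at day 2 and -2.19, -2.18 and -2.14 in DNMT_WT, a difference of -1.80 ± 0.19 (adjusted p = 0.00012). Its TET_WT values at day 0 and day 1 lay between -0.37 and 0.36, so DNMT_WT stood below all TET_WT libraries. Clec2g (-1.63), Clec2e (-1.47), Clec2i (-1.18) and Clec2h (-0.94) lie beside it and were lower as well. Of the Klr genes, Klrb1f (-1.46), Klre1 (-1.29), Klrb1c (-1.19), Klrb1b (-0.88) and Klrb1a (-0.77) were lower. Cd69, an early activation marker of lymphocytes in the same cluster, was lower by -1.61 (adjusted p = 0.016). In the start-site tile of Clec2g, 18, 23 and 15 reads in TET_WT at day 2 stood next to 1, 5 and 0 in DNMT_WT.

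The remaining genes of largest difference between the lines lay outside these clusters. Lower in DNMT_WT were Lsm5 (-1.98), a subunit of an RNA-binding complex, Neurod6 (-1.53), a neuronal transcription factor, and Nat8f3 (-1.42), an acetyltransferase gene with close copies. Neurod6 had 0.47, 0.09 and 0.13 in TET_WT and -0.91, -1.39 and -1.59 in DNMT_WT (adjusted p = 0.00042). Higher, besides the Hoxa genes, were the homeobox gene Dlx6 (1.32), the transcription factor gene Atoh1 (1.32) and the histone gene H2aj (1.26). Atoh1 had -1.39, -1.42 and -2.04 in TET_WT and -0.51, -0.13 and -0.27 in DNMT_WT (adjusted p = 0.0018).

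Few genes of the other lists were called, and none of any list was called at day 1. A gene held by several lists counts in each. Over all autosomal genes 16.1% rose and 2.72% fell from day 0 to day 2, and 15.8% were higher and 4.32% lower in DNMT_WT, and the counts of these lists are to be read against those shares. Of 13 genes for chromatin and DNA modification, among them Tet3, Mbd4 and Ezh2, 0 were higher and 0 lower in each of the 3 comparisons. Their medians were -0.09 for day 2 and -0.03 for the line. Tet3, which encodes a TET enzyme, lay between 0.85 and 1.21 in all 11 libraries. Of 14 genes of the imprinted clusters, 0 rose and 0 fell from day 0 to day 2, and 1 was lower in DNMT_WT (Calcr, a calcitonin receptor gene, by -1.02 with an adjusted p of 0.031).

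Of 18 long neural genes, 0 rose and 2 fell from day 0 to day 2 (Cacna1c at -0.40 and Sox5 at -0.47, median -0.18; 16.1% of all genes rose and 2.72% fell). In DNMT_WT 0 were higher and 4 lower (15.8% and 4.32% of all genes). Cacna1c, a calcium channel gene, had 0.29, 0.32 and 0.25 at day 0, 0.14 and 0.16 at day 1, -0.10, -0.11 and -0.12 at day 2, and -0.84, -0.72 and -0.81 in DNMT_WT. The groups are narrow and do not overlap. Its line difference was -0.68 ± 0.11 (adjusted p = 0.0015), and the other 3 lower genes were Magi1 (-0.59), Foxp1 (-0.45) and Sox5 (-0.42).

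Of 9 blood and endothelial genes, Cd9 rose and Mitf fell (-0.75) from day 0 to day 2. In DNMT_WT Gata2, a transcription factor of blood progenitors, was higher by 0.58 (adjusted p = 0.0088), and Vwf (-0.39), Clec1b (-0.99) and Etv6 (-0.40) were lower. Of 15 signalling and cell-cycle genes, Cdkn1b rose and Ret fell (-0.56) from day 0 to day 2. In DNMT_WT Wnt16 (-0.57), Fgf6 (-0.49) and Ret (-0.38) were lower. With the chromosome's median set to 0, no gene of these last lists was lower in DNMT_WT, and Gata2 stayed higher.

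Of 12 housekeeping genes, Rpl32 (0.94) and Tpi1 (0.44) rose and Atp6v1e1 (-0.88) and Cops7a (-0.49) fell from day 0 to day 2. Tpi1 (0.43) and Ptms (0.96) were higher and Atp6v1e1 (-0.41) lower in DNMT_WT. The shares of the list that rose and that were higher in DNMT_WT are near the 16.1% and 15.8% over all genes. Of the measured bitter taste receptor genes (Tas2r, 24 of 33) 0 were called in each of the 3 comparisons. Of the vomeronasal receptor genes (Vmn1r, 35 of 51) Vmn1r16 was lower for day 2 (-1.64) and Vmn1r14 for the line (-2.43). The list medians were -0.47 (Tas2r) and -0.30 (Vmn1r) for day 2, 0.35 and 0.40 for day 1, and -0.13 and -0.12 for the line. A tile without reads is valued at 0.9 reads, which is a higher log2 RPKM in a shallower library. How far this moved the list medians was not tested. In summed reads, the Vmn1r windows chr6:57000001-58000000, chr6:58000001-59000000 and chr6:66000001-67000000 differed by -0.03, 0.09 and -0.08 from day 0 to day 1, and none was called.

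**Figure D5:**
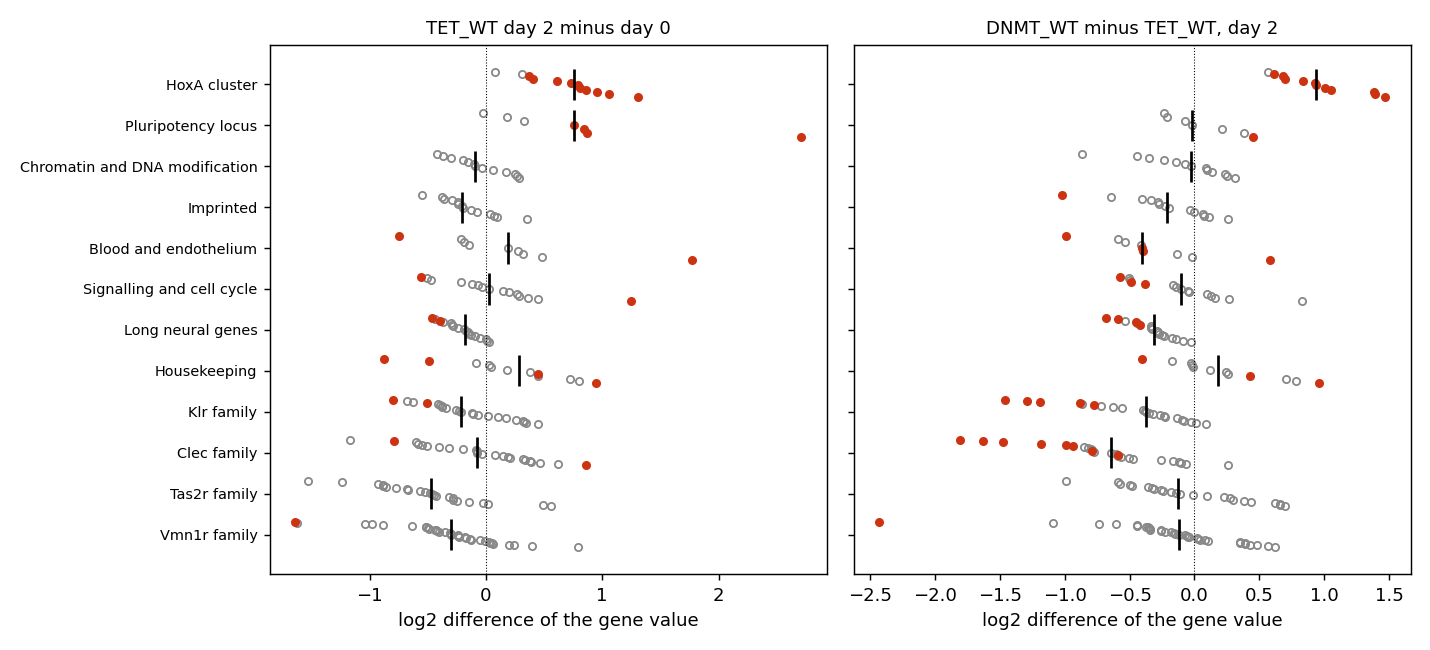
Log2 difference of each measured gene of 12 chromosome 6 lists from day 0 to day 2 in TET_WT (left) and from TET_WT to DNMT_WT at day 2 (right). Filled red points passed limma's test (adjusted p under 0.05), open points did not, and the black bar is the median of the list. The HoxA list lies to the right in both panels and the Clec list to the left in the right panel.

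In single tiles, 2700 of the 68469 tested tiles of chromosome 6 rose (5.65% of all autosomal tiles did) and 2864 fell (2.86% did) from day 0 to day 2. At day 1, 235 rose (0.587% of all tiles) and 454 fell (0.406% of all tiles). In DNMT_WT 265 were higher (1.05% of all tiles) and 2837 lower (2.36% of all tiles). With all libraries thinned to the same depth, 647 rose and 423 fell for day 2 (1.27% and 0.397% of all tiles). For day 1, 181 rose and 14 fell (0.283% and 0.0165% of all tiles). For the line 9 were higher and 227 lower (0.0518% and 0.127% of all tiles). Without day 0 replicate 2, 60799 of all 1106954 autosomal tiles rose and 25909 fell for day 2, and 8739 and 2893 for day 1. On chromosome 6, 2557 then rose and 2452 fell for day 2, and 303 rose and 282 fell for day 1. The total for day 2 was 3643 without day 2 replicate 2. For day 1 it was 189 and 1326 without day 1 replicates 2 and 3. For the line it was 1730, 1858 and 1787 without TET_WT day 2 replicates 1, 2 and 3.

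The largest single-tile rises from day 0 to day 2 were found at chr6:128460001-128462000, in the predicted gene Gm10069, and at chr6:125490001-125492000, within Cd9 and close to its start site. The Cd9 tile held 4, 3 and 1 reads at day 0, 7 and 16 at day 1, 122, 102 and 96 at day 2, and 249, 107 and 171 in DNMT_WT. The Gm10069 tile held 1 read in each day 0 library, 5 and 6 at day 1, and 62, 44 and 84 at day 2. The day 1 libraries, which are shallower, held slightly more reads than day 0 in both tiles. The fitted differences were 6.30 for the Cd9 tile and 6.70 for the Gm10069 tile, and both rest on at most 4 reads per library at day 0. The third tile, chr6:100422001-100424000, lies outside annotated genes and held 7, 10 and 0 reads at day 0 and 75, 48 and 74 at day 2.

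The largest single-tile falls from day 0 to day 2 lay in Dnah6, a dynein gene (chr6:73212001-73214000; 50, 27 and 27 reads at day 0 and 3, 0 and 1 at day 2), in Gm18007 (chr6:49858001-49860000) and outside genes (chr6:101022001-101024000). From day 0 to day 1 the 3 tiles of largest rise held at most 11 reads in any library. The 3 of largest fall, in Gm7545, Mitf and Vgll4, held at most 2 reads at day 1 and 19 to 57 at day 0.

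Between the lines single tiles went from well covered to empty and the reverse. A tile in Hk2, the hexokinase 2 gene (chr6:82772001-82774000), held 1, 0 and 1 reads in TET_WT at day 2 and 216, 87 and 136 in DNMT_WT. At day 0 and day 1 it held 0 to 3 reads, so only the DNMT_WT libraries held more than a few reads. A tile at chr6:128644001-128646000, in the predicted genes Gm44478 and Gm5884 near the Klrb1 genes, held 174, 116 and 127 reads in TET_WT at day 2 and 1, 2 and 0 in DNMT_WT. Tiles outside annotated genes at chr6:133262001-133264000 and chr6:114522001-114524000 held 55 to 70 reads in TET_WT and 0 or 1 in DNMT_WT.

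Tiles at start sites had a higher median than the tiles of the chromosome at large at day 2 and between the lines, and a lower one at day 1; the difference was not tested. Of the 1019 tested tiles at annotated start sites of coding genes, 135 rose (5.65% of all autosomal tiles did) and 33 fell (2.86% did) from day 0 to day 2, with a median of 0.17 where the median of all tested tiles of the chromosome was -0.21. At day 1, 7 rose (0.587% of all tiles) and 5 fell (0.406% of all tiles), with a median of -0.02 compared with 0.07. In DNMT_WT 34 were higher (1.05% of all tiles) and 26 lower (2.36% of all tiles), with a median of 0.10 compared with -0.26 over all tested tiles. The medians over all tested tiles of the chromosome depend on depth. With libraries thinned to the same depth they were -0.09 for day 2, -0.05 for day 1 and -0.05 for the line. Start-site tiles were not summarised at equal depth, so whether these gaps hold there was not tested.

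Mest, an imprinted gene expressed from the paternal copy, whose promoter is known to be methylated on the maternal copy, was lower in its start-site tile. Of the 1019 start-site tiles, 33 fell from day 0 to day 2 and 26 were lower in DNMT_WT. The Mest tile begins inside the printed stretch, and most of that stretch lies before it. The tile at the start site printed above (chr6:30738001-30740000) held 164, 174 and 133 reads at day 0, 18 and 68 at day 1, 53, 27 and 58 at day 2, and 12, 2 and 10 in DNMT_WT. Scaled to the library total, it was lower at day 2 by -1.07 ± 0.33 (adjusted p = 0.022) and lower in DNMT_WT by -2.94 ± 0.33 (adjusted p = 7.8e-12). The value over the whole gene did not pass the test in either comparison (-0.20 and -0.19). Trh and Cd9, with 25 and 16 CpG in the stretches printed above, went up by 3.10 and 2.28 from day 0 to day 2 in their start-site tiles and did not pass the test between the lines.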

How the data were processed

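HMCP libraries of 11 samples were analysed: TET_WT at day 0 (3), day 1 (2) and day 2 (3), and DNMT_WT at day 2 (3). Per the submitters' processing notes, reads were trimmed with Trim Galore 0.6.5 and cutadapt 2.3 and aligned with Bowtie2 2.4.1, and the build is GRCm38; the read counter is not given in the sources used here. The authors deposited log2 RPKM per 2 kb tile. Within each library these values are whole multiples of 1 read (100% of values within 0.1%), so reads were recovered from them, and a tile without reads holds the value of 0.9 reads. Library depths are given with the results.

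Tile and gene tests left out the lowest 10% and highest 0.1% of tiles by mean value, and sums left out the highest. Windows of 1 Mb needed at least 250 tiles, and their reads were scaled to CPM of autosomal reads with an offset of 0.5. Genes, extended by 2 kb, needed 3 tiles and carried their mean log2 RPKM. Genes came from RefSeq (GRCm38.p6), without strand or exons. Windows, genes and tiles of all autosomes were fitted in limma 3.58.1 (R 4.3.3) with 1 mean per group and a variance trend, and p-values were adjusted by Benjamini-Hochberg over all features of a kind, with 0.05 as threshold. Promoter matches covered 918 genes of the chromosome. Python 3.11.15, numpy 2.4.6, pandas 2.3.3, scipy 1.17.1 and matplotlib 3.10.9 were used.

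Named were, per comparison, the 5 windows, 8 genes and 3 tiles of largest difference in each direction among those called (windows and genes without overlap, and without predicted genes and olfactory and vomeronasal receptors), and members of the lists. 1 of these genes is not reported here. The chromosome and the lists were chosen with earlier results of these data known. On simulated data for TET_WT day 2 against day 0, the fit recovered 66 of 66 windows (of 2388), 21 of 66 genes (of 19738) and 0 of 66 tiles (of 100000) changed by 0.5 in log2, 60 of 67 genes and 7 of 67 tiles changed by 1, and 64 of 67 genes and 36 of 67 tiles changed by 2. The simulated windows and genes were given little spread between libraries beyond counting error. Their recovery does not carry over to real windows and genes with a wide spread. No library was simulated apart from its group, as day 0 replicate 2 stood in the data, and this limits the tiles too. The gene value of Mdfic had a day 0 SD of 0.61. In chr6:45000001-46000000 the day 0 SD was 0.92, and a difference of -0.51 from day 0 to day 2 was not called (limma, adjusted p = 0.28). Alternatives covered scaling, centring, depth, filters, window size, the samples in the fit, a replicate block, voom on the recovered reads and leaving out each library.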

Additional observations from a re-analysis of the deposited data

How the results depend on the processing

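The share of chromosome 6 kept its direction under every alternative run. On the log2 scale it was -0.15 for day 2, -0.11 for day 1 and -0.21 for the line. As the median log2 RPKM change of its tiles less that of the other autosomes it was -0.18 for day 2 and -0.079 for the line, and with tiles below the median only it was -0.16 for the line. Leaving out 1 library at a time gave -0.16 to -0.14, -0.12 to -0.10 and -0.21 to -0.21. Counts of called features moved more, and are given here in the order day 2, day 1, line. Called windows numbered 16, 2 and 42 with the mean log2 RPKM per window, 145, 52 and 188 with windows of 500 kb, and 48, 10 and 56 with each chromosome centred. With only the groups compared, 43 windows were called for day 2 and 0 for day 1. Leaving out 1 library gave 47 to 131, 13 to 94 and 77 to 131 windows. A denominator without chromosomes 6 and 14, chosen after seeing the data, called 80, 30 and 107 windows. Called genes numbered 358, 17 and 301 with voom, and 103 for the line with each chromosome centred. Leaving out 1 library gave 99 to 346, 0 to 11 and 96 to 305 genes. Called tiles numbered 784, 0 and 405 without the variance trend, 3527, 112 and 1097 with each chromosome centred, and 1070, 195 and 236 at equal depth, where fewer reads were tested. Leaving out 1 library gave 3643 to 6251, 189 to 1326 and 1730 to 3843 tiles. Apart from equal depth and left-out libraries, the cause was not tested.

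Of 1806 alternatives for 104 named results of windows and genes, 1579 kept direction and call, 227 kept direction and lost the call (142 of them with a library left out), and 0 reversed. The named tiles were not put through the alternatives. Replicate numbers did not pair the samples: correlations between same-numbered libraries ran from -0.29 to 0.26. With the replicate block, 67, 22 and 90 windows, 155, 0 and 155 genes, and 5512, 602 and 3083 tiles were called. With a median of 2 to 17 reads per tile, single tiles with small differences were not detectable.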
